A study of Homo sapiens with 16 samples.

Results

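The nuclear-encoded genes of the mitochondrial respiratory chain were examined in A375 human amelanotic melanoma cells and in clones of this cell line that carry human catalase cDNA. Members were the rows of the expression table with 1 gene symbol that began with NDUF (followed by A, B, C, S or V and a digit), UQCR, COX4 to COX8 or ATP5, or that was SDHA, SDHB, SDHC or SDHD, and 1 row was taken per gene. The rule found 81 of 18417 genes. Of these, 75 encode subunits: 33 of complex I, 3 of complex II, 7 of complex III, 16 of complex IV and 16 of complex V. The other 6 members were the transcript NDUFV1-DT, the pseudogenes UQCRBP1 and ATP5F1EP2, the retrocopy ATP5MGL, the ATP synthase inhibitor ATP5IF1 and the supercomplex factor COX7A2L. Subunits that share a row with another symbol, and those without a row of 1 symbol, were not analysed here.

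RNA from 4 groups was hybridised to 16 Affymetrix Human Gene 1.0 ST arrays, with 4 biological replicates per group. A375 cells were not transfected. PCDNA3 cells are A375 cells with the empty pcDNA3 vector, and A7 and G10 are each 1 clone, obtained by clonal dilution, of A375 cells with pcDNA3 that holds human catalase cDNA. All groups grew in medium with galactose, pyruvic acid and ascorbic acid. The 3 transfected groups were selected with geneticin at 1500 µg/ml and then kept at 700 µg/ml, whereas A375 cells had none. Each catalase group is a single clone, so that the effect of catalase and of clonal origin cannot be told apart. Values are log2 intensities, and control denotes the mean of the A375 mean and the PCDNA3 mean. A gene was called higher or lower at a Benjamini-Hochberg adjusted p under 0.05 in limma, adjusted over all 33297 rows. The 8 control arrays served for both clones.

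The respiratory chain passes electrons from NADH (complex I) and succinate (complex II) through ubiquinone, complex III and cytochrome c to complex IV, which reduces oxygen, and complexes I, III and IV pump protons. Complex V, the ATP synthase, uses the proton gradient to make ATP. Most subunits are encoded in the nucleus, while mitochondrial DNA supplies a few central ones. Electrons that leave the chain early give superoxide and, from it, hydrogen peroxide, which catalase breaks down.

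Catalase mRNA was examined in every array before the members. CAT had 8.64, 9.03, 8.64 and 8.62 in A375, 8.51, 8.51, 8.53 and 8.71 in PCDNA3, 9.02, 8.92, 9.12 and 9.02 in A7, and 8.51, 8.55, 7.74 and 8.27 in G10. Thus, the arrays labelled A7 were mostly above the controls and those labelled G10 within or under them. The difference from control was 0.37 ± 0.13 (SE) in A7 (limma adjusted p = 0.124) and -0.38 ± 0.13 in G10 (adjusted p = 0.0526), and neither was called. G10 was lower than A7 by 0.75 (log2 difference -0.75, adjusted p = 0.00221). The CAT row cannot tell the transgene from the cell's own transcript, and for the arrays labelled G10 it did not show more catalase mRNA than control. Every value given for G10 is that of the arrays with this label.

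The 4 groups were on 1 scale, with array medians from 5.85 to 5.97 and correlations within a group of at least 0.984. Of 9 measured melanocyte lineage markers, 8 were above the level of olfactory receptor rows in A375 and 9 in the other groups, and their summed level was 71.6 to 74.8 in A375, 71.4 to 78.5 in PCDNA3, 79.6 to 82.6 in A7 and 78.7 to 81.5 in G10. Of 5 keratinocyte markers 2 and of 5 endothelial markers 1 were above that level in every group. Of 6 fibroblast markers 5 were above it in every group, with a summed level of 34.2 to 34.8 in A375, 32.3 to 33.6 in PCDNA3, 33.9 to 34.4 in A7 and 31.5 to 34.6 in G10, and LUM was higher in A7 (0.91, adjusted p = 0.0172). Of 5 leukocyte markers, 2 were above it in the controls and 3 in the clones, with summed levels between 27.2 and 29.1, and CD68 was higher in G10 (0.58, adjusted p = 0.0139). The part of these genes in the changes of the members was not tested. That level, the 95th percentile of 360 olfactory receptor rows (5.18), served as the mark of a dim row. Under it in every group were 6 members: ATP5MGL, COX6B2, COX7A1, COX7B2, COX8C and NDUFV1-DT. The other 75 members exceeded it in at least 1 group. In bulk RNA a change in the share of a kind of cell and a change of RNA per cell cannot be told apart.

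More respiratory chain genes were called in G10 than in A7, as was the case over all rows. Most changes were small, and they went in both directions. Compared with control, G10 had 18 members higher and 4 lower, where 17.8% of all rows were called, 9.92% higher and 7.9% lower. The share of members was 22.22% higher and 4.94% lower. All rows include 12083 without a gene symbol. Over 18311 genes with 1 symbol and a known place in the genome, the members left out, the shares in G10 were larger. They were 13.2% higher and 10.52% lower. In A7, 3 members (3.7%) were higher and 1 (1.23%) lower, where 5.69% of all rows were called, 3.46% higher and 2.23% lower. The median difference of the 81 members was 0.09 in G10 and 0.07 in A7, beside -0.04 and -0.02 over all rows. PCDNA3 against A375 gave 0 called members in limma, with 4 at an unadjusted p under 0.05, where 0.123% of all rows were called, 0.045% higher and 0.0781% lower. The arrays of PCDNA3 lay wholly above those of A375 for 2 members and wholly below for 6, where 11.1% of all rows did not overlap, 6.26% above and 4.87% below. The G10 count of higher members was smaller with 1 control group alone, which has 4 arrays in place of 8. It was 10 with A375 alone and 15 with PCDNA3 alone, and the count of lower members was 4 with each. The parts of the choice of control and of the number of arrays were not tested.

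**Figure D1:**
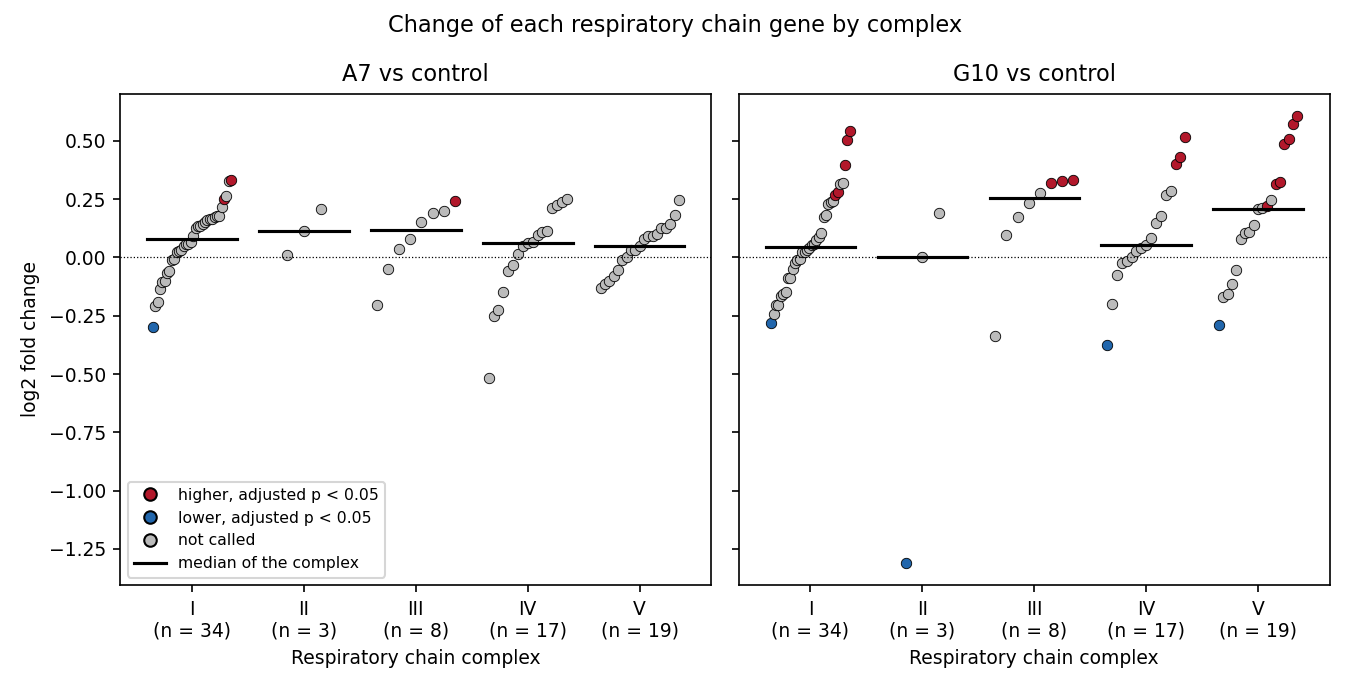
Log2 fold change of each of the 81 members against control, for A7 (left) and G10 (right), with 1 point per gene ordered within its complex, red or blue where the adjusted p was under 0.05, and a black bar at the median of the complex. SDHD of complex II in G10, at -1.31, lies apart from all other members, which are within -0.52 and 0.61 of control in both panels.

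By complex, G10 had 5 higher and 1 lower of 34 members of complex I, and 0 and 1 of 3 of complex II. Complex III had 3 and 0 of 8, complex IV 3 and 1 of 17, and complex V 7 and 1 of 19. The shares called in complexes I to V were 17.65%, 33.33%, 37.5%, 23.53% and 42.11%. Of all rows, 17.8% were called, 9.92% higher and 7.9% lower. The median difference was 0.21 for complex V and 0.25 for complex III, and 0.05 for complex I, 0.00 for complex II and 0.05 for complex IV. In A7, the calls were 2 higher and 1 lower in complex I and 1 higher in complex III, with none in the others, where 1 member of complex II, 5 of complex IV and 2 of complex V had an unadjusted limma p under 0.05. The arrays of G10 lay wholly above those of all controls for 9 members, and wholly below for 4, where 10.3% of all rows did not overlap, 5.96% above and 4.35% below. In A7, 5 members lay wholly above and 1 below, where 5.96% of all rows did not overlap, 3.5% above and 2.47% below.

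Arrays of 1 group did not carry the same level of the whole set. Within G10, replicate 3 had the lowest value of its group for 46 of the 81 members, and its member median was 0.01 from control, compared with 0.15, 0.11 and 0.12 in replicates 1, 2 and 4. Within A7, replicate 2 was lowest for 51 members, and its median was 0.00, compared with 0.06, 0.13 and 0.10 in replicates 1, 3 and 4. The array weights of limma, estimated over all rows, are low for noisier arrays. They were lowest for G10 replicates 3 (0.39) and 4 (0.46), and then for A7 replicate 2 (0.58). Without G10 replicate 3, 21 members were called higher and 3 lower in G10. Without A7 replicate 1 or A7 replicate 3, 0 members were called higher in A7.

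Complex II holds succinate dehydrogenase, which joins the citric acid cycle to the chain. SDHD encodes its small membrane anchor subunit and was the member with the largest change. SDHD had 10.24, 10.60, 10.46 and 10.38 in A375, 10.33, 10.09, 10.42 and 10.22 in PCDNA3, 10.59, 10.18, 10.38 and 10.28 in A7, and 9.44, 9.17, 8.76 and 8.77 in G10. The 4 G10 arrays were all below the 12 others, which overlapped among themselves. SDHD fell in G10 by 1.31 ± 0.13 (SE) on the log2 scale, or 2.48-fold (limma adjusted p = 2.51e-06), and was 0.01 from control in A7 (adjusted p = 0.98). These values are from the brighter of 2 rows of SDHD. The other row fell less, by 0.99 ± 0.13 in G10 (adjusted p = 4.32e-05). Whether each row reads only SDHD, and no near copy of it, was not tested. The flavoprotein subunit SDHA differed by 0.19 (adjusted p = 0.325) and the other anchor subunit SDHC by 0.00 (adjusted p = 0.99), so that neither passed the test.

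Upstream sequences of SDHD and of ATP5PO and ATP5PF, the members with the largest changes down and up in G10, are given here. Their promoters carry NRF1 or GABP/ETS letters (given below), which were more frequent in this gene set than over all promoters. TATA letters, also marked, were not. Each run is the 250 bases before the annotated start, 5′ to 3′ on the strand of the gene, from RefSeq on GRCh38.p14, with matches of the searched motifs in capitals. SDHD is at chr11:112086623-112086872 (plus strand), ATP5PO at chr21:33915805-33916054 (minus strand) and ATP5PF at chr21:25735055-25735304 (minus strand).
SDHD: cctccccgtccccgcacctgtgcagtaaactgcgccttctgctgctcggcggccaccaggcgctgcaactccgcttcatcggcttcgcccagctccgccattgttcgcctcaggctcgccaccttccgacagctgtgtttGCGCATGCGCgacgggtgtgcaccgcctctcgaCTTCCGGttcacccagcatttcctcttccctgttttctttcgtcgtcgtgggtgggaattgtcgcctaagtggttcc
ATP5PO: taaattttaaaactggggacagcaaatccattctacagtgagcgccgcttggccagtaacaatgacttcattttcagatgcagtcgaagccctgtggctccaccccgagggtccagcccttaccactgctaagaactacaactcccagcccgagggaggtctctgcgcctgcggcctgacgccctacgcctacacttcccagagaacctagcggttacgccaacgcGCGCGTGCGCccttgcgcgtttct
ATP5PF: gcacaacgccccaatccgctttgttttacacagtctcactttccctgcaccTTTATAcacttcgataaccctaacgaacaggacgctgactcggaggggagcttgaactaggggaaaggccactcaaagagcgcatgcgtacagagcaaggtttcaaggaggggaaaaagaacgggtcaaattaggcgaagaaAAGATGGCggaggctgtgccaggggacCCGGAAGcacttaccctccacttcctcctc

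The SDHD run holds an NRF1 match (GCGCA, any 1 base, then GCGC, read on both strands) and, on the opposite strand, a GABP/ETS match (CCGGAAG). The ATP5PO run holds 1 NRF1 match on the opposite strand. The ATP5PF run holds TATA letters (TATAAA, opposite strand), a YY1 match (AAGATGGC) and a GABP/ETS match. NRF1, the nuclear respiratory factor 1, and GABP are known regulators of genes of the respiratory chain. Promoters of 67 of the 81 members were matched, and windows from 250 bases before to 50 after the start were searched on both strands. Of these, 23.88% held NRF1 letters, compared with 6.28% of 27305 promoters. GABP/ETS letters were in 28.36% compared with 10.67%, YY1 letters in 14.93% compared with 3.03%, SP1 letters (GGGCGG) in 58.21% compared with 44.59%, and TATA letters in 10.45% compared with 11.95%. Matches of different motifs may overlap, and these shares carry no test.

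Complex V had 7 of 19 members (36.84%) higher in G10, and complex III 3 of 8 (37.5%), where 9.92% of all rows were higher. ATP5PO encodes the subunit that links the catalytic head to the peripheral stalk (also known as OSCP). ATP5PO had 9.73, 9.66, 9.70 and 9.69 in A375, 9.87, 9.48, 9.39 and 9.66 in PCDNA3, 9.65, 9.75, 9.69 and 9.63 in A7, and 10.37, 10.31, 10.13 and 10.21 in G10. The G10 arrays were all above every other array. ATP5PO rose by 0.61 ± 0.08 (SE), 1.52-fold, in G10 (limma adjusted p = 7.78e-05), and the difference in A7, 0.03, was not called (adjusted p = 0.896). ATP5PF, another peripheral stalk subunit (coupling factor 6), had 8.63, 8.78, 8.91 and 8.91 in A375, 9.27, 8.89, 8.70 and 8.89 in PCDNA3, and 9.19, 9.34, 9.74 and 9.51 in G10, where 1 PCDNA3 array lay above the lowest G10 array. Its rise was 0.57 ± 0.12 (adjusted p = 0.00274).

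ATP5ME, ATP5MK and ATP5MG encode small subunits of the membrane part of the ATP synthase. ATP5ME had 9.71, 9.63, 9.78 and 9.61 in A375, 9.69, 9.69, 9.68 and 9.65 in PCDNA3, 9.52, 9.39, 9.84 and 9.77 in A7, and 10.07, 9.99, 10.42 and 10.26 in G10. All G10 arrays were above all others, and the rise was 0.51 ± 0.09 (adjusted p = 0.00124). ATP5MK rose by 0.49 ± 0.11 (adjusted p = 0.00404), and by 0.57 in its other row. ATP5MG moved the other way. It had 10.999, 11.08, 11.03 and 11.02 in A375, 11.14, 10.98, 11.01 and 11.13 in PCDNA3, 11.17, 11.18, 11.09 and 11.12 in A7, and 10.74, 10.73, 10.74 and 10.81 in G10, with all G10 arrays below all others. It fell by 0.29 ± 0.06 (adjusted p = 0.00201). The other higher members, named after their values were seen, were ATP5PD (0.32), ATP5MJ (0.31) and ATP5F1C (0.22). The head subunits ATP5F1A (0.14, adjusted p = 0.213) and ATP5F1B (0.08, adjusted p = 0.494) were not called. Neither were the 3 genes that encode the same ring subunit c, ATP5MC1 (0.25, adjusted p = 0.115), ATP5MC2 (0.10) and ATP5MC3 (0.11).

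**Figure D2:**
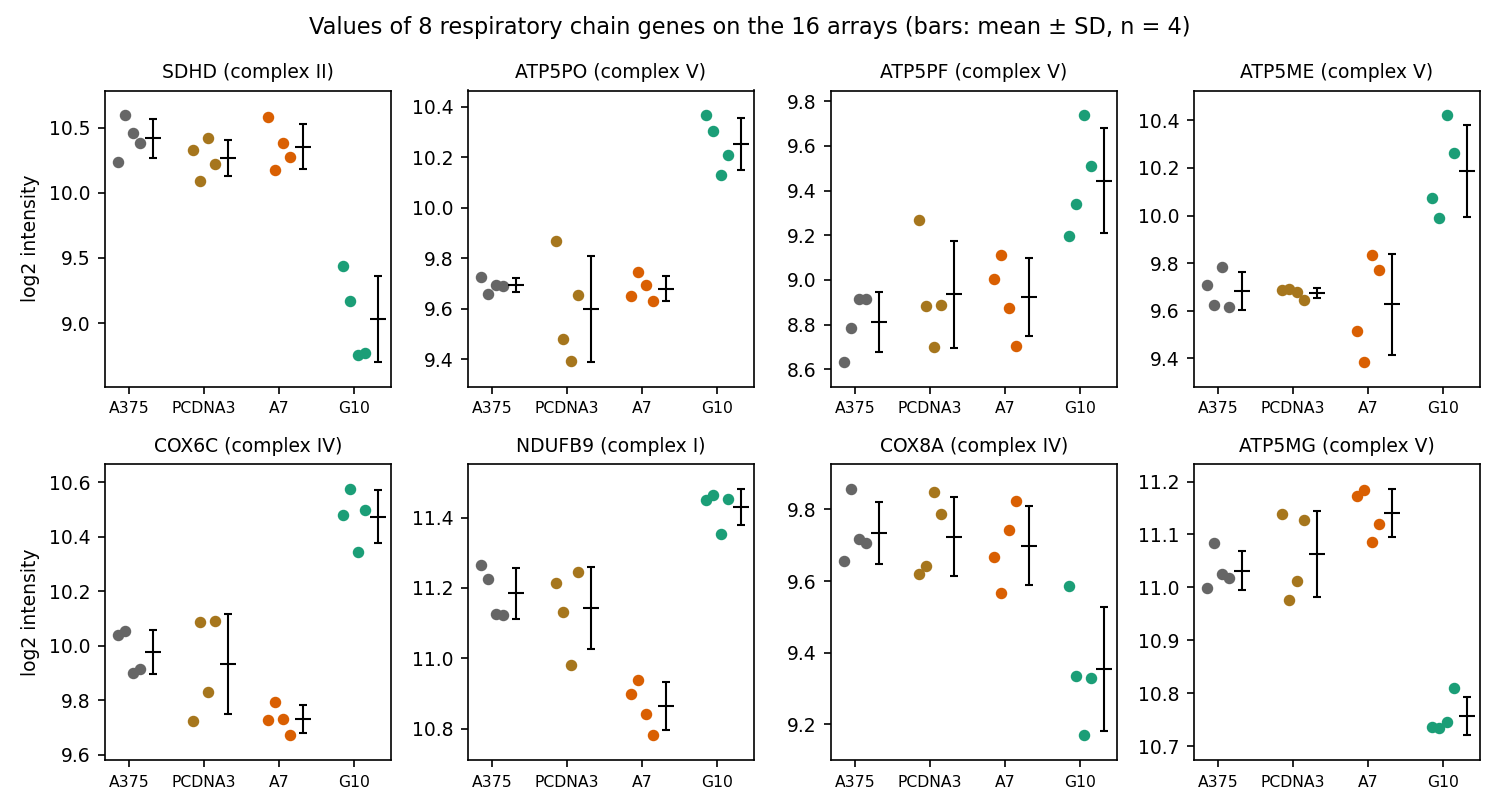
Log2 intensity of 8 members on each of the 16 arrays, with 1 point per array, and mean ± SD of the 4 arrays of a group beside them; each panel has its own axis. The 4 G10 arrays of SDHD, ATP5MG, ATP5PO, ATP5ME, COX6C and NDUFB9 do not overlap those of any other group. NDUFB9 is lower in A7 and higher in G10 than in the controls.

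In complex I, which takes electrons from NADH, 6 of 34 members (17.65%) were called in G10, near the 17.8% of all rows. The 6 were accessory subunits, and whether these differ from core subunits was not tested. None of the 6 measured core subunits, NDUFS1, NDUFS3, NDUFS7, NDUFS8, NDUFV1 and NDUFV2, was called against control in A7 or in G10, with differences from -0.17 to 0.17 in G10 and 0 at an unadjusted limma p under 0.05 in either. Higher in G10 were NDUFB5 (0.54 ± 0.14, adjusted p = 0.00987), NDUFV3 (0.50 ± 0.10, adjusted p = 0.00137), and NDUFB9 and, named after their values were seen, NDUFB6 (0.40) and NDUFA7 (0.28). Lower was NDUFB2 (-0.28 ± 0.09, adjusted p = 0.0406). NDUFB5 had 11.72, 11.77, 10.93 and 11.13 in G10, compared with 10.93, 11.11, 10.94 and 11.07 in A375 and 10.74, 10.50, 10.73 and 10.75 in PCDNA3. Thus, G10 replicate 3 lay within the values of A375 and replicate 4 just above them, while replicates 1 and 2 were clearly higher. NDUFB2 had 8.56, 8.74, 8.70 and 8.99 in G10, where the last array lay within the controls (8.88 to 9.30). NDUFV3 encodes a small subunit of the module that binds NADH, and had 8.42, 8.35, 8.19 and 8.36 in A375, 8.22, 8.21, 8.12 and 8.26 in PCDNA3, 8.41, 8.32, 8.28 and 8.43 in A7, and 8.94, 9.04, 8.64 and 8.46 in G10. The lowest G10 array was above the highest A375 array by a small margin.

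NDUFB9 was the only member called in both clones, in opposite directions. It encodes an accessory subunit of the membrane arm, and had 11.27, 11.23, 11.12 and 11.12 in A375, 11.21, 11.13, 10.98 and 11.24 in PCDNA3, 10.90, 10.94, 10.84 and 10.78 in A7, and 11.45, 11.46, 11.35 and 11.45 in G10. All A7 arrays were below and all G10 arrays above the 8 control arrays. It fell in A7 by 0.30 ± 0.07 (adjusted p = 0.0136) and rose in G10 by 0.27 ± 0.07 (adjusted p = 0.0103). G10 was above A7 by 0.57 ± 0.08 (adjusted p = 9.38e-05).

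A7 had 3 further called members, all higher. NDUFA12, an accessory subunit of complex I, had 10.78, 10.86, 10.72 and 10.66 in A7, compared with 10.46, 10.55, 10.57 and 10.48 in A375 and 10.45, 10.49, 10.47 and 10.53 in PCDNA3, and rose by 0.25 ± 0.07 (adjusted p = 0.0417). NDUFA2, another accessory subunit, had 9.26, 9.14, 9.43 and 9.39 in A7, compared with 9.01, 9.10, 8.95 and 8.93 in A375 and 8.97, 8.89, 8.90 and 9.03 in PCDNA3, and rose by 0.33 ± 0.08 (adjusted p = 0.0235). UQCRQ, a small subunit of complex III, had 10.08, 9.94, 10.00 and 10.05 in A7, compared with 9.72, 9.75, 9.70 and 9.73 in A375 and 9.75, 9.92, 9.82 and 9.82 in PCDNA3, and rose by 0.24 ± 0.06 (adjusted p = 0.0284). All 3 genes had every A7 array above every control array. The calls were near the threshold: of 31 alternatives, NDUFA12 was not called in 19, UQCRQ in 10, NDUFA2 in 6 and NDUFB9 (A7) in 4.

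Complex III, which passes electrons from ubiquinol to cytochrome c, had 3 of 8 members (37.5%) higher in G10, where 9.92% of all rows were higher. UQCRH, the hinge subunit, rose by 0.32 ± 0.11 (adjusted p = 0.0476), and UQCR11 by 0.33 ± 0.07 (adjusted p = 0.00231; named after its values were seen). The third was UQCRBP1, a pseudogene (0.33 ± 0.11, adjusted p = 0.0383), whose parent gene UQCRB differed by 0.28 (adjusted p = 0.0727) and was not called. The signals of such near copies may not be separable on the array. UQCRC2, a core subunit, differed by -0.34 ± 0.13 (adjusted p = 0.0795), was not called, and had 10.93, 10.85, 10.04 and 10.39 in G10.

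Complex IV, cytochrome c oxidase, had 3 higher members in G10, COX6C, COX7A2 and COX7C, and 1 lower, COX8A, all small structural subunits. Of its 17 members 23.53% were called, where 17.8% of all rows were called. COX6C had 10.04, 10.05, 9.90 and 9.92 in A375, 9.72, 10.09, 9.83 and 10.09 in PCDNA3, 9.73, 9.79, 9.73 and 9.67 in A7, and 10.48, 10.58, 10.34 and 10.50 in G10. The G10 arrays were above all others, and the A7 arrays overlapped those of PCDNA3. COX6C rose in G10 by 0.52 ± 0.08 (adjusted p = 0.000241), with -0.22 in A7 (adjusted p = 0.135), and was higher in G10 than in A7 by 0.74 (adjusted p = 3.72e-05). COX7C rose by 0.43 ± 0.10 (adjusted p = 0.00524) and COX7A2 by 0.40 ± 0.13 (adjusted p = 0.0361). COX8A had 9.66, 9.86, 9.72 and 9.71 in A375, 9.62, 9.64, 9.85 and 9.79 in PCDNA3, 9.67, 9.57, 9.74 and 9.82 in A7, and 9.59, 9.33, 9.17 and 9.33 in G10. It fell by 0.37 ± 0.08 (adjusted p = 0.00464), although the highest G10 array was close to the lowest of the controls.

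Several subunits of complex IV exist as a general isoform and one restricted to certain tissues. The restricted isoforms COX4I2, COX6A2, COX6B2, COX7A1, COX7B2 and COX8C were not called against control in either clone. Of these, COX6B2, COX7A1, COX7B2 and COX8C were dim in every group, and COX4I2 had means close to the dim level. COX6A2, the muscle isoform, was above it, with -0.25 in A7 (adjusted p = 0.175) and -0.20 in G10 (adjusted p = 0.194). The general isoforms COX4I1 (0.05), COX6A1 (0.28), COX6B1 (0.18) and COX7B (0.27) were not called in G10, with adjusted p of 0.773, 0.223, 0.14 and 0.167. The general isoforms COX7A2 and COX8A were called, as given above. COX7A2L, which joins complexes III and IV, differed by 0.03 (adjusted p = 0.879).

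G10 was also compared with A7 directly. Of the 81 members, 11 were higher and 8 lower in G10, where 15.2% of all rows were called, 7.83% higher and 7.38% lower. The median was 0.05, beside -0.01 over all rows. The arrays of G10 lay wholly above those of A7 for 11 members and wholly below for 9, where 17.4% of all rows did not overlap, 8.89% above and 8.48% below. Complex I had 2 higher and 5 lower, and complex V 5 higher and 1 lower. The lower members of complex I were NDUFA6 (-0.37, adjusted p = 0.015), NDUFA9 (-0.34, adjusted p = 0.00881), NDUFS3 (-0.33, adjusted p = 0.0194), NDUFS1 (-0.32, adjusted p = 0.032) and NDUFA12 (-0.30, adjusted p = 0.016). NDUFS1 and NDUFS3 are core subunits of the arm that reaches into the matrix. NDUFS1 had 11.23, 11.28, 11.16 and 11.18 in A7 and 11.03, 10.97, 10.61 and 10.94 in G10, which did not overlap. NDUFS3 had 11.37, 11.32, 11.42 and 11.45 in A7 and 11.16, 11.15, 10.81 and 11.11 in G10, likewise without overlap. Neither differed from control in G10 or A7 beyond the threshold. COX7B2 was called higher in G10, but was dim in both clones, so no size is given.

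The members that changed in G10 were set against the genes beside them, a comparison made after their values were seen. The places are the order of genes with a row of 1 symbol along GRCh38.p14, with 10 such genes taken on each side. Beside SDHD, on chromosome 11, 12 of 20 genes were lower in G10 and 0 were higher, with a median of -0.80. The 10 genes on the side of TIMM8B (-0.75), a mitochondrial import chaperone, and DLAT (-1.40), the E2 subunit of pyruvate dehydrogenase, were all called lower. They included CRYAB (-1.79), a small heat shock protein, and PPP2R1B (-1.29), a phosphatase subunit. On the other side, PTS (-1.17) and NCAM1 (-1.64) were lower. Of the 8 genes not called, 5 were dim both in the controls and in G10, as was 1 of the 12 called. TTC12 (0.085), ANKK1 (-0.14) and DRD2 (-0.25) were not called either, and were not dim in both. Beside ATP5PO, on chromosome 21, 15 of 20 genes were higher and 1 lower, with a median of 0.51. They included the purine synthesis gene GART (0.54), the interferon receptor gene IFNAR1 (0.51) and the transcription factor gene RUNX1 (0.77).

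**Figure D3:**
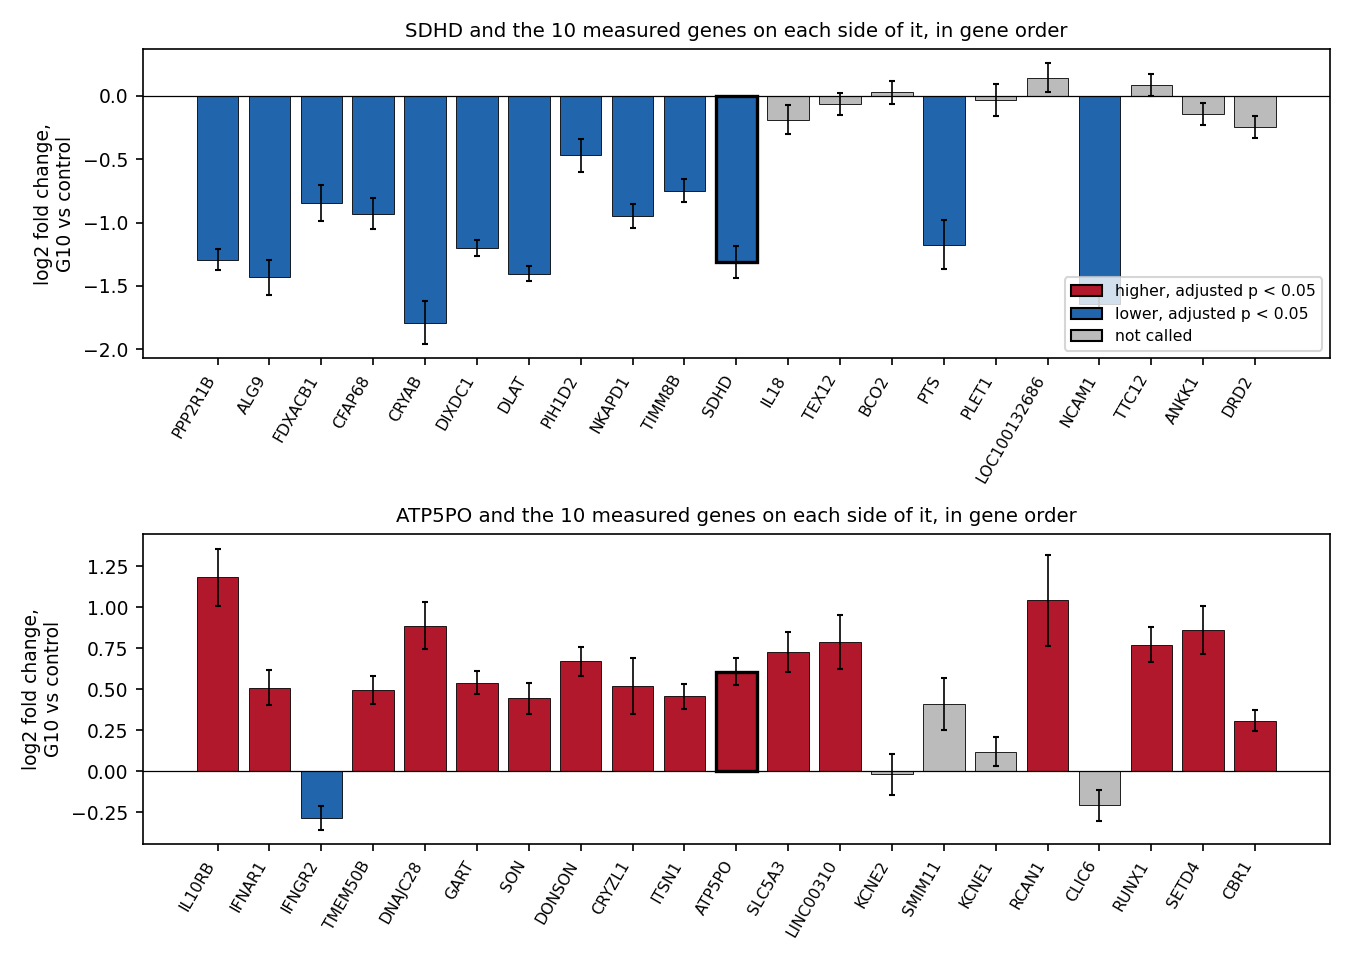
Log2 fold change of G10 against control (bars, with SE) for SDHD (top) and ATP5PO (bottom), each in a heavy outline, and the 10 measured genes on each side in gene order. The 10 genes to the left of SDHD are all lower, and 15 of the 20 genes around ATP5PO are higher.

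The same was counted for all members. Beside the 18 higher members, 22.69% of 357 neighbours were higher in G10 and 5.6% lower, or 19.58% higher without the neighbours of ATP5PO. Beside the 4 lower members, 28.75% of 80 neighbours were lower and 0 higher, or 18.33% lower without those of SDHD. Beside the 59 members that were not called, 11.38% of 1107 neighbours were higher and 11.11% lower. Over all 18311 placed genes the shares were 13.2% and 10.52%. These shares carry no test. Each neighbour was counted once beside each set of members, and the members themselves were left out of these shares.

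By chromosome, the 3 members on chromosome 21, ATP5PO, ATP5PF and NDUFV3, were all higher in G10, where 29.54% of 237 genes on that chromosome were higher and 2.11% lower. Of the 7 members on chromosome 11, SDHD, COX8A and ATP5MG were lower and none higher, where 24.03% of 1232 genes were lower and 1.62% higher. NDUFB2 is on chromosome 7, where 22.09% of 833 genes were lower. NDUFB9, COX6C and UQCRB are on chromosome 8. There, 16.9% of 639 genes were lower and 14.71% higher in A7, and 6.73% lower and 16.59% higher in G10. The number of copies of these regions was not measured, and the part of position in the changes of the members was not tested.

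**Figure D4:**
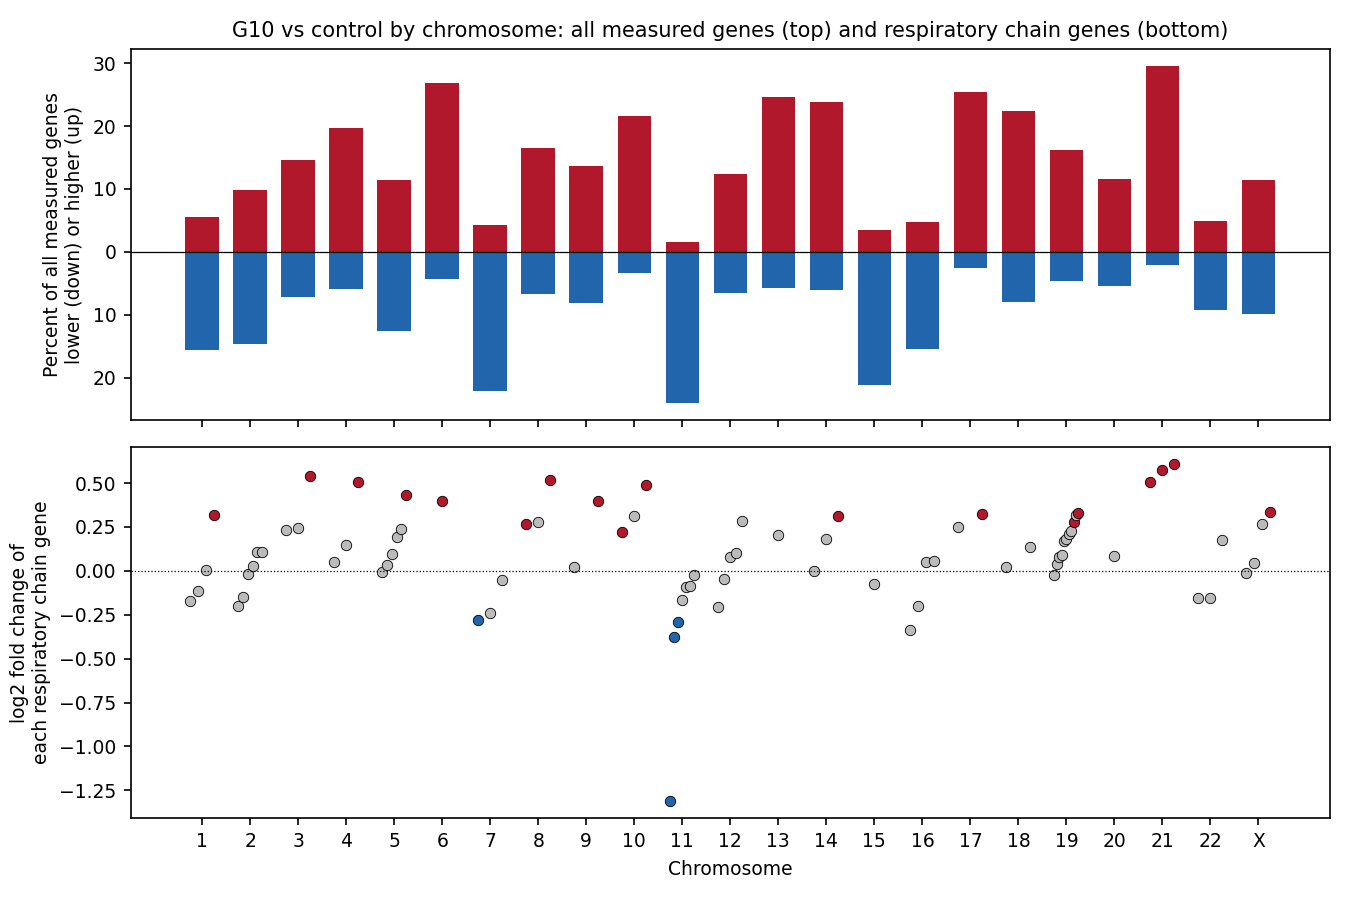
G10 against control by chromosome. The top panel gives the percent of all measured genes called higher (up, red) and lower (down, blue), and the bottom panel the log2 fold change of each respiratory chain gene, coloured where called. Chromosome 21 has the highest share of higher genes (29.54%) and all 3 of its members higher, and chromosome 11 the highest share of lower genes (24.03%) and 3 of its 7 members lower.

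Genes that serve the chain were taken as lists. Of all rows, 9.92% were called higher and 7.9% lower in G10, and 3.46% and 2.23% in A7. Over the 18311 placed genes the shares in G10 were 13.2% and 10.52%. Of 8 electron carriers beside the complexes, 5 (62.5%) were lower and 1 (12.5%) higher in G10. None was called by limma in A7, where 2 had an unadjusted p under 0.05. SQOR, which passes electrons from sulfide to ubiquinone, had 9.02, 9.28, 8.56 and 8.56 in A375, 8.29, 8.23, 9.02 and 8.64 in PCDNA3, 8.72, 8.60, 8.66 and 8.81 in A7, and 7.34, 7.31, 7.03 and 7.20 in G10. The G10 arrays were all below the others, and SQOR fell by 1.48 ± 0.15 (adjusted p = 5.75e-06). GPD2, the mitochondrial glycerol phosphate dehydrogenase, fell by 0.68 (adjusted p = 0.00191) and CYCS, cytochrome c, by 0.36 (adjusted p = 0.00898), while ETFDH, which passes electrons from fatty acid oxidation, rose by 0.58 (adjusted p = 0.0118). NDUFAB1, a complex I subunit that the naming rule does not match, fell by 0.61 ± 0.08 (adjusted p = 3.58e-05), with 8.40, 8.37, 8.58 and 8.54 in G10 and 8.94 to 9.23 over the controls. CYC1, cytochrome c1 of complex III, differed by 0.11 (adjusted p = 0.67).

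Of 54 measured assembly factors, which build the complexes but are not part of them, 18 (33.33%) were higher and 8 (14.81%) lower in G10. In A7, 4 (7.41%) were higher and 1 (1.85%) lower. The shares of all rows were 9.92% higher and 7.9% lower in G10, and 3.46% and 2.23% in A7. For complex IV, 9 of 22 (40.91%) were higher and 4 (18.18%) lower in G10. The former included SURF1 (0.61, adjusted p = 0.000954), TACO1 (0.61, adjusted p = 6.95e-06), which activates translation of a mitochondrial subunit, COX15 (0.60, adjusted p = 0.000651), which makes heme A, and SCO1 (0.57, adjusted p = 6.1e-06), a copper chaperone. SURF1 was also higher in A7 (0.46, adjusted p = 0.0222). For complex I, 5 of 19 (26.32%) were higher and 3 (15.79%) lower in G10, among them DMAC1 (0.49), TMEM126A (-0.52) and TMEM126B (-0.48). TMEM70, which was placed in the list of complex I and not in that of complex V, was lower in A7 (-0.51, adjusted p = 0.00204). For complex III, UQCC1 (0.55) and TTC19 (0.38) were higher and BCS1L (-0.31) lower in G10, of 6. TTC19 differed from A375 alone by 0.22 (adjusted p = 0.354) and from PCDNA3 alone by 0.54, and was not called in 13 of 31 alternatives. For complex V, 2 of 4 were higher in G10, DMAC2L (0.51) and TMEM242 (0.19), and TMEM242 was higher in A7 as well (0.37, adjusted p = 0.00136). None of 3 factors of complex II was called by limma in either clone, with 1 at an unadjusted p under 0.05 in each.

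Of 16 regulators, 2 (12.5%) were higher and 3 (18.75%) lower in G10, where 9.92% of all rows were higher and 7.9% lower. None was called by limma in A7, where 4 had an unadjusted p under 0.05. TWNK, the mitochondrial DNA helicase, rose by 0.68 (adjusted p = 6.91e-06). The subunits of GABP moved apart, GABPA by 0.63 (adjusted p = 0.00946) and GABPB1 by -0.68 (adjusted p = 0.00153), and the coactivator PPARGC1B fell by 0.39 (adjusted p = 0.00224). PPARGC1A, a coactivator of mitochondrial biogenesis, had 7.96, 8.58, 7.43 and 7.96 in A375, 7.59, 6.29, 6.66 and 7.43 in PCDNA3, 8.65, 8.97, 8.33 and 8.49 in A7, and 8.93, 8.97, 6.99 and 7.68 in G10. Its differences, 1.12 ± 0.35 in A7 (adjusted p = 0.0764) and 0.65 ± 0.35 in G10 (adjusted p = 0.241), were not called.

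The list of 16 citric acid cycle genes also holds enzymes beside the cycle. In G10, 2 of its genes (12.5%) were higher and 3 (18.75%) lower, where 9.92% of all rows were higher and 7.9% lower. The higher genes, named after their values were seen, were IDH3B (0.40), of the NAD-dependent isocitrate dehydrogenase, and DLST (0.44), of the oxoglutarate dehydrogenase complex. Lower were IDH1 (-1.07, adjusted p = 6.91e-06), the cytosolic NADP-dependent isocitrate dehydrogenase, IDH2 (-0.83, adjusted p = 0.0351), the mitochondrial NADP-dependent enzyme, and PC (-0.71, adjusted p = 0.0203), pyruvate carboxylase, which supplies oxaloacetate to the cycle. IDH2 was at -0.52 without G10 replicate 3 (adjusted p = 0.142) and was not called in 10 of 31 alternatives, and PC in 5. OGDH was higher in A7 (0.53, adjusted p = 0.00906). Of 11 genes of pyruvate dehydrogenase and its regulators, 3 (27.27%) were higher and 1 (9.09%) lower in G10. In A7, 4 (36.36%) were higher, where 3.46% of all rows were higher. DLAT fell by 1.40 ± 0.06 in G10 (adjusted p = 5.03e-10). The kinases PDK4 and PDK2 and the phosphatase PDP1, which turn the enzyme off and on, rose in G10 by 2.14, 1.38 and 0.60. PDP1 was above PCDNA3 alone by 0.21 (adjusted p = 0.613) and above A375 alone by 1.00, and was not called in 8 of 31 alternatives. PDK4 had 8.25, 8.56, 7.77 and 8.17 in A375, 6.96, 6.3998, 7.26 and 7.09 in PCDNA3, 9.24, 9.25, 9.46 and 9.14 in A7, and 9.72, 9.67, 10.00 and 9.38 in G10. It rose in A7 by 1.72 (adjusted p = 6.2e-06), and it was lower in PCDNA3 than in A375 by 1.26 (log2 difference -1.26, adjusted p = 0.0189).

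Of 21 genes of the outer membrane, import and chaperones, 4 (19.05%) were higher and 0 lower in G10, where 17.8% of all rows were called and 9.92% were higher, among them OPA1 (0.50), which fuses the inner membrane, TOMM70 (0.24) and VDAC2 (0.23). TOMM70 was not called in 10 of 31 alternatives and VDAC2 in 6. VDAC3 was higher in A7 (0.50, adjusted p = 0.00157). Of 7 carriers of adenine nucleotides and phosphate, AK3, a mitochondrial adenylate kinase, had 7.13, 7.19, 7.01 and 6.999 in A375, 7.19, 7.04, 6.65 and 7.28 in PCDNA3, 5.73, 5.21, 5.50 and 5.37 in A7, and 9.23, 9.36, 9.02 and 9.004 in G10. The 3 levels did not overlap. AK3 fell in A7 by 1.61 ± 0.12 (adjusted p = 4.99e-07) and rose in G10 by 2.09 ± 0.12 (adjusted p = 6.21e-09). SLC25A4, an ADP/ATP carrier, was higher in A7 (0.31, adjusted p = 0.0407), but was not called in 15 of 31 alternatives. SLC25A27, of the 5 uncoupling genes, was dim in the controls and was higher by at least 0.46 (log2) in G10 and at least 0.21 in A7 (adjusted p = 0.000273 and 0.00649). The mitochondrial DNA-encoded subunits had no row of 1 symbol and were not analysed here.

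**Figure D5:**
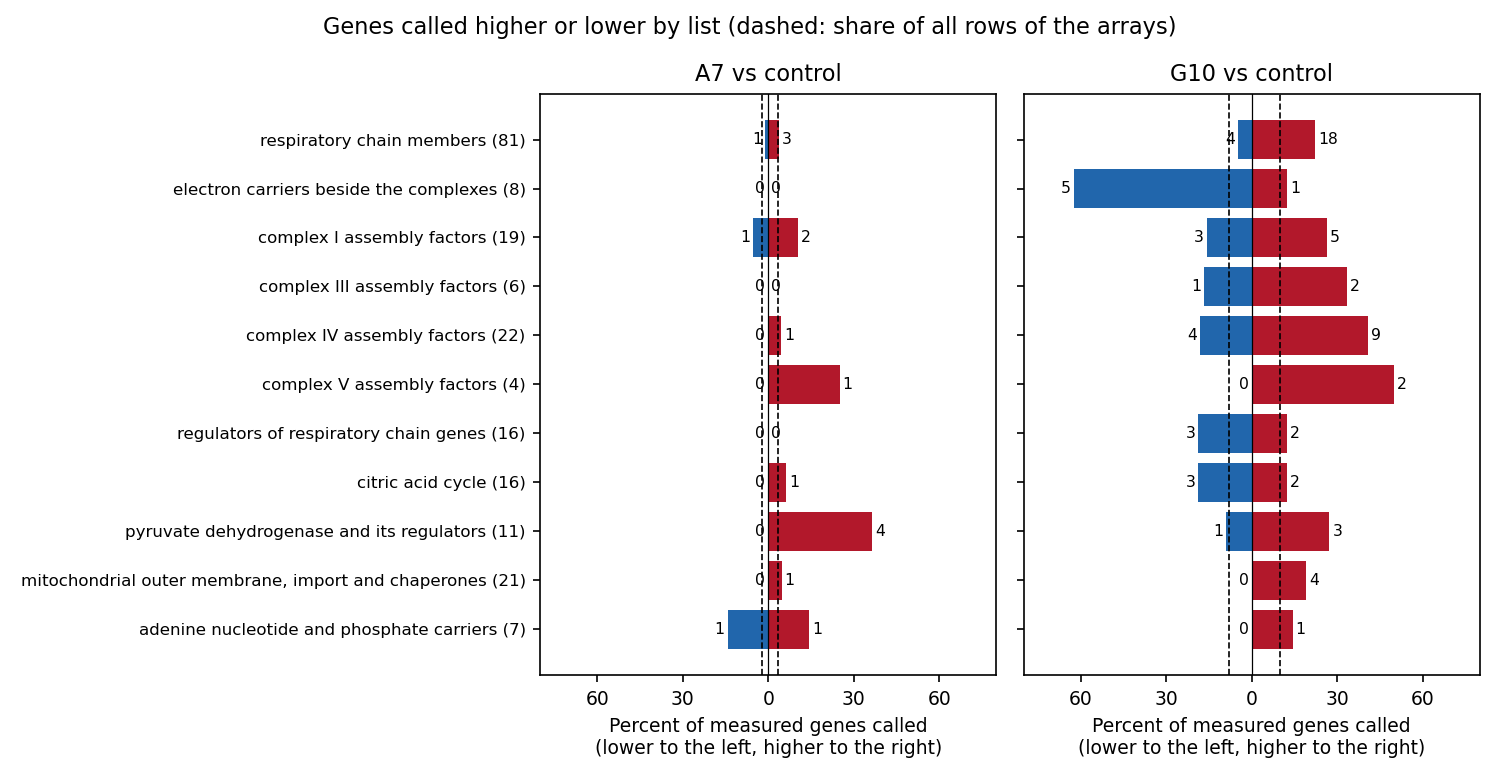
Percent of the measured genes of each list called higher (right, red) or lower (left, blue) in A7 and G10 against control, with the number of genes at each bar and the size of the list in brackets. Dashed lines mark the share of all rows called in that direction; the members in G10 reach 22.22% higher beside 9.92% of all rows, and the electron carriers have 5 of 8 genes lower.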

How the data were processed

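Total RNA of 16 samples was hybridised to Affymetrix Human Gene 1.0 ST arrays. Background correction, normalization and summary of the probes were done by the authors with RMA, which gives log2 intensities per transcript cluster. Their versions of RMA and limma were not given in those sources. RMA was not repeated, and probe-level data were not analysed here.

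Rows were tied to genes through the platform annotation: 19460 of 33297 rows had 1 symbol, 1754 several and 12083 none. For the 769 genes with more than 1 row, the row with the highest mean over the 16 arrays was taken. Whether such a row reads only the named gene, and no near copy of it, was not tested. limma 3.58.1 (R 4.3.3) was fitted with 1 mean per group over all 16 arrays, and p-values were adjusted by Benjamini-Hochberg over all rows. Figures were made with matplotlib 3.10.9. Labels name the arrays of a group as biological replicates. The number of arrays limits the precision, and a gene measured by 1 row has no second probe set. The script was tested on simulated data.

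The members, lists and tests were chosen with earlier results of these data known. Genes were named as up to 8 higher and 8 lower members per comparison, the largest change per complex, all isoforms, and up to 4 called genes per list, besides CAT and PPARGC1A. Other names are given where stated. DMAC2 was placed with the complex I assembly factors after its values were seen. Correlations of same-numbered deviations from the group means ran from -0.161 to 0.23. Deviations with different numbers were not compared, so whether the replicate numbers pair the arrays was not tested.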

Additional observations from a re-analysis of the deposited data

Results flagged for a closer look

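Of 160 groups of 4 arrays of the named members and CAT, 13 had 1 array far from the other 3, where chance gives about 1 in 20. Low values were ATP5MK in PCDNA3 replicate 1 (9.84) and A7 replicate 2 (9.88), COX6A2 in PCDNA3 replicate 1 (6.78), COX4I1 (8.20), NDUFB9 (11.35) and NDUFS3 (10.81) in G10 replicate 3, and NDUFB5 in PCDNA3 replicate 2 (10.50). High values were ATP5MG (10.81) and COX7B2 (4.97) in G10 replicate 4, COX6B2 in G10 replicate 2 (3.97), NDUFB2 in A375 replicate 3 (9.08), and CAT in A375 replicate 2 (9.03) and PCDNA3 replicate 4 (8.71). COX7B2 and COX6B2 were dim in every group.

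NDUFB9 differed in direction between the clones. Its log2 intensity was 0.57 higher in G10 than in A7 (limma adjusted p = 9.38e-05).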

How the results depend on the processing

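Of 360 alternative values of the counts and medians, 323 stayed within 1.5 times the count or 1 SD (0.05) of the median. The median in G10 against A7 changed sign without A7 replicate 2, from 0.05 to -0.0084. For A7, the count of higher members, 3, became 1 with A375 alone, with PCDNA3 alone, and after quantile normalization, and the count of lower members, 1, became 0 with PCDNA3 alone, 3 with array weights, and 2 with only the compared arrays or only rows of 1 symbol. With a log2 fold limit of 0.5, the counts (higher and lower) were 0 and 0 for A7, 6 and 1 for G10 against control, and 7 and 1 for G10 against A7. At an adjusted p under 0.01 0 and 0 were left for A7, 11 higher for G10 against control, and 5 and 3 for G10 against A7. With A375 alone, 10 members were higher in G10. With only the compared arrays, 7 were higher and 2 lower in G10 against A7.

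With the replicate number as a block, 1 member was higher and 2 were lower in A7. The block moved no other count by over 1.5 times. Whether the numbers pair the arrays was not tested.

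Leaving out 1 array in turn gave 0 to 3 higher and 0 to 2 lower members in A7, 13 to 21 higher and 3 to 5 lower in G10, and 9 to 11 higher and 5 to 9 lower in G10 against A7. The A7 count moved without A375 replicate 1 or 3 (1 higher), A7 replicate 1 or 3 (0 higher) or A7 replicate 4 (1 higher and 0 lower), and without A375 replicate 3 or G10 replicate 4 (2 lower). The median in G10 against A7 ran from -0.0084 without A7 replicate 2 to 0.12 without A7 replicate 4, and 5 members were lower without A7 replicate 3 or 4 or G10 replicate 3. The cause was not tested.

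In G10, SDHD, ATP5PO, ATP5PF, ATP5ME, COX6C and NDUFV3 were called under all 31 alternatives. UQCRH was not called in 18 of them, NDUFB2 in 16, COX7A2 in 13 and UQCRBP1 in 11. Among the genes beside the chain, TMEM242 in G10 and DMAC1 in A7 were not called in 14, SURF1 in A7 in 6 and BCS1L in G10 in 5. With 5 or 20 genes on each side, chosen after seeing the data, 22.78% and 21.16% of the neighbours of higher members were higher.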
